A study of Danio rerio with 4 samples.

Results

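Of the 15248 ATAC-seq peaks listed for the actl6a knockdown group, 5448 (35.7%) are described here as actl6a-only peaks. They overlapped no peak of the control list by 1 bp or more and lay outside chromosome 4 beyond 30 Mb. They were selected from the 2 deposited lists, 1 per group, on chromosomes 1 to 25. A further 134 peaks without overlap, on chromosome 4 beyond 30 Mb, were left out, while the 15248 include the peaks of that stretch. The actl6a-only peaks made up 5448 of 29639 regions obtained by merging both lists. Because absence from the control list chose them, higher signal in actl6a than in control libraries is partly built in. Signal differences between the groups are therefore given as a description, and no test is used to support them.

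ATAC-seq uses a transposase that cuts and tags DNA where nucleosomes leave it exposed, so a local pile of reads marks a promoter, an enhancer or another stretch of accessible chromatin. Actl6a, also called BAF53A, is an actin-related subunit of SWI/SNF (BAF) complexes, which use ATP to slide or evict nucleosomes and so open regulatory DNA. The pronephros is the embryonic kidney of fish, and its duct is a ciliated, ion-transporting epithelial tube.

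Zebrafish embryos carrying GFP in the pronephric epithelium (the Na, K-ATPase alpha1A4:GFP line) were injected at the 1-cell stage. The control group of 2 libraries received a standard control morpholino and is labelled wild type. The actl6a group of 2 libraries received a morpholino that blocks translation of actl6a and is labelled actl6a knockdown. At 30 hours post fertilization 15 embryos were dissociated, about 10 duct fragments were picked by their green fluorescence, and 10000 to 20000 viable cells per sample were made into a library. Each library is thus a pool of embryos, and a morpholino given at that stage reaches every tissue of the embryo. The labels do not say whether the libraries of a group come from separate clutches, so the spread between them may be partly technical.

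Depth inferred from the smallest step of each coverage track was 117 and 136 M reads in the control libraries and 148 and 165 M in the actl6a libraries (M for mega). Both actl6a libraries were deeper than both control libraries, and the part of depth in the peak lists was not tested. An actl6a-only peak held a median of 61.6 and 68.3 inferred reads in the control libraries and of 113 and 118 in the actl6a libraries. In 134 of the 5448 (2.46%) at least 1 library held under 10 inferred reads, and signal there rests on few reads. No gene is assigned to a peak and no sequence is shown, since the annotation at hand is of another build and was not used here. For the same reason markers of the duct and actl6a itself were not checked.

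Actl6a-only peaks were fainter in actl6a libraries than shared peaks, whose medians there were 3.54 and 2.80, and they also held signal in control libraries. Signal is given as a multiple of the genome mean of the same library. The median over the 5448 peaks was 1.58 in control replicate 1 and 1.54 in control replicate 2. It was 2.36 in actl6a replicate 1 and 2.22 in actl6a replicate 2. The group values were 1.56 ± 0.0325 and 2.29 ± 0.0991 (SD, n = 2), and both actl6a medians lay above both control medians. In bulk chromatin, more cells with an open site and a site more often open in each cell cannot be told apart.

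The flanks differed far less than the peaks. Between 500 and 1500 bp outside the peaks the median signal was 0.873 and 0.886 in the control libraries, against 0.886 and 0.897 in the actl6a libraries. Above these flanks, the median excess signal in the peak was 0.686 and 0.633 in the control libraries, against 1.46 and 1.32 in the actl6a libraries. The control excess thus came to 47.4% of the actl6a excess. The median profile around the peak midpoint had a hump in all 4 libraries. At the centre it reached 1.59 and 1.55 in the control libraries, against 2.57 and 2.41 in the actl6a libraries. The control hump was lower and also broader, with a width at mid-height of 581 and 590 bp against 425 and 421 bp in actl6a libraries. The profiles are centred on peaks of the actl6a list, so a narrower actl6a hump may be partly built in, which was not tested.

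**Figure D1:**
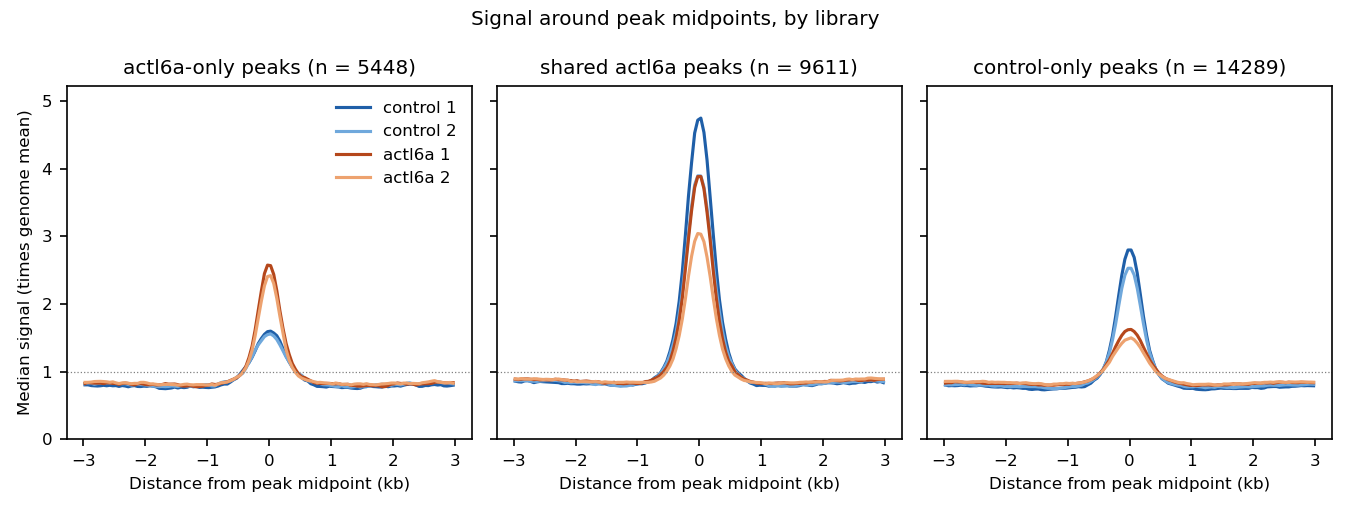
Median signal, as a multiple of the genome mean, against the distance from the peak midpoint in kb, for each library (control in blue, actl6a in orange) and for 3 classes of peaks. At actl6a-only peaks the control libraries form a low hump, at 1.59 and 1.55, under the actl6a libraries at 2.57 and 2.41, and outside the peaks all 4 libraries run close together.

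The same pattern, with the groups exchanged, was found at the 14289 peaks of the control list that overlapped no actl6a peak. There the actl6a libraries held the remainder. The median actl6a excess over flanks was 0.695 and 0.569, which is 39.1% of the control excess. The actl6a hump at control-only peaks measured 592 and 605 bp at mid-height, against 459 and 468 bp for the control hump. Those profiles are centred on peaks of the control list, so the same limit holds. In the 9611 actl6a peaks that overlapped a control peak, widths at mid-height lay between 480 and 505 bp in all 4 libraries. These classes are measured in the same 4 libraries, and each was chosen by the lists, so their differences were not tested.

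Most actl6a-only peaks stood above their surroundings in control libraries as well. The enrichment over flanks, the signal of a peak divided by that of its flanks, had medians of 1.79 and 1.73 in control libraries and of 2.67 and 2.49 in actl6a libraries. Both control libraries were at or above their flanks in 3838 peaks (70.4%) and at least 2 times their flanks in 1306 (24.0%). In 343 peaks (6.30%) neither control library rose above its flanks. The name actl6a-only therefore describes the lists and not an absence of control signal.

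The 343 peaks without local control signal had medians of 0.815 and 0.867 in control libraries and of 2.22 and 2.18 in actl6a libraries. Their median log2 change was 1.02, on the scale log2(signal + 0.5), and in 318 of them both actl6a libraries exceeded both control libraries. That share, 92.7%, stands beside 53.1% of all actl6a-only peaks and 11.0% of all merged peaks. It is raised by drawing the set on low control enrichment, and nothing is read from it. The 1306 peaks with at least 2-fold enrichment in both control libraries had control medians of 2.16 and 2.03 and actl6a medians of 2.65 and 2.37, a median log2 change of 0.19. The sets differed more in control than in actl6a signal, and control enrichment is how they were drawn. They also differed in their flanks. Control flanks averaged 1.21 in the 343 peaks and 0.656 in the 1306, and actl6a flanks 1.08 and 0.751. The split is thus one of flanks as well as of peak signal.

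Control signal at some actl6a-only peaks reached the range of listed control peaks, mostly its lower part. Percentile 5 of mean control signal over the 23881 control peaks was 1.82, and 1900 actl6a-only peaks (34.9%) were at or above it. Percentile 25 was 2.31, and 896 actl6a-only peaks (16.4%) reached it. The median of the control list was 2.87, and 381 actl6a-only peaks (6.99%) reached that. The reverse count was similar: 4492 of the 14289 control-only peaks (31.4%) were at or above percentile 5 of actl6a signal in the actl6a list. By mean control enrichment over flanks instead of signal, more actl6a-only peaks reached the range of the control list. Percentile 5 of enrichment in that list was reached by 3036 of them (55.7%) and percentile 25 by 1413 (25.9%). Its median was reached by 628. The deposited lists give no score, so it cannot be said why a peak of given signal was listed in 1 group and not in the other.

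**Figure D2:**
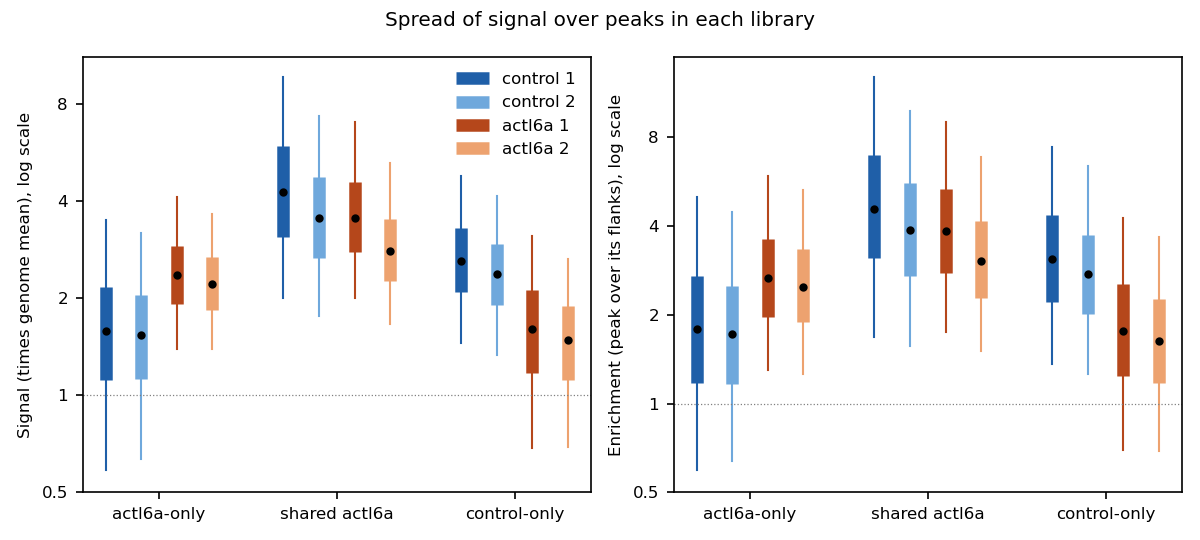
Signal as a multiple of the genome mean (left) and enrichment of a peak over its flanks (right), both on log scales, for each library and class of peaks. Dots are medians, thick bars span percentiles 25 to 75 and thin bars percentiles 5 to 95. At actl6a-only peaks the thin bars of control and actl6a libraries overlap widely, while the thick bars of signal overlap only in part. Percentile 75 of control signal is 2.17 and 2.05, and percentile 25 of actl6a signal is 1.92 and 1.85. Control medians of signal are 1.58 and 1.54 and actl6a medians 2.36 and 2.22.

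Single peaks were less clear than the medians. In 2893 actl6a-only peaks (53.1%) both actl6a libraries exceeded both control libraries, against 11.0% of all 29639 merged peaks. In 85 both actl6a libraries were below both control libraries (47.1% of all merged peaks), and in the remaining 2470 (45.3%) the libraries of the groups overlapped. The first share is raised by the way the peaks were selected, and nothing is read from it. Shares over all merged peaks are also tilted by selection, since the 14289 control-only peaks are among them. Mean actl6a signal was at least 1.5 times mean control signal in 2513 peaks (46.1%), at least 2 times in 1077 (19.8%) and at least 3 times in 231 (4.24%). In shared actl6a peaks these shares were 0.812%, 0.114% and 0%, and in control-only peaks 0.0210%, 0% and 0%. Mean actl6a signal was below mean control signal in 587 actl6a-only peaks (10.8%), against 80.5% of shared actl6a and 97.4% of control-only peaks. These shares are likewise shaped by the selection, and nothing is read from them.

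The 2 libraries of a group often disagreed at a given peak. One actl6a library was at least 2 times the other in 549 peaks (10.1%), and one control library at least 2 times the other in 1093 (20.1%). Control libraries held fewer inferred reads at these peaks, and the part of that was not tested. The median SD of log2 signal within a group was 0.250 in control and 0.231 in actl6a libraries. It was close to this in shared actl6a peaks, at 0.231 and 0.246, and in control-only peaks, at 0.240 and 0.237. In 769 peaks (14.1%) the lower actl6a library was below both control libraries. The ratio of the lower actl6a to the higher control library had a median of 1.03 and ran from 0.569 at percentile 5 to 2.04 at percentile 95. Across the 5448 peaks, Pearson's r of log2 signal was 0.468 between the actl6a libraries and 0.593 between the control libraries, and from 0.507 to 0.597 between libraries of different groups. At control-only peaks the control libraries had the lowest value, 0.395. Peaks are not independent replicates. Both classes were picked by presence in 1 list and absence from the other, which may limit the range of values in either group. Whether that affects these correlations was not tested.

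The position of the highest 50 bp bin was compared in the 4208 actl6a-only peaks of at least 300 bp. It lay within 50 bp of the same place in 42.1% of peaks between the actl6a libraries and in 31.8% between the control libraries. Between a control and an actl6a library the share was 31.9% to 33.7%. In shared actl6a peaks it was 53.4% to 60.3% for every pair of libraries. In control-only peaks it was 41.9% between the control libraries, 30.5% between the actl6a libraries and 33.0% to 35.3% between groups. These shares are given without a test, and the share expected by chance was not computed. That chance share depends on peak width, which differed between the classes, so shares of different classes are not directly comparable. In actl6a-only and control-only peaks, the higher share was that of the group whose list chose them, so it may be partly built in. Whether any of these shares exceeded the chance share was not tested.

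limma on log2(signal + 0.5) over all 29639 merged peaks called 21 actl6a-only peaks (0.385%) higher in actl6a libraries at an adjusted p under 0.05, against 0.101% of all merged peaks. It called 0 lower, against 0.132% of all. Before adjustment, 1241 actl6a-only peaks (22.8%) were higher at a limma p under 0.05, against 4.41% of all merged peaks, and 2 (0.0367%) were lower, against 18.4% of all. These counts changed with the scaling, and so did the balance of higher and lower calls over all peaks. Scaling on the median signal of merged peaks gave 2617 higher actl6a-only peaks before adjustment, and 45 higher and 2 lower calls over all merged peaks, where the analysis described gave 30 and 39. Quantile normalization gave 2695, and 20 and 1. The contrast is the one that selected the peaks, so these counts are a description. The shares over all merged peaks are shaped by the same lists, since control-only peaks are among them. The calls sat near the threshold, with adjusted p of 0.0306 to 0.0485 in limma. With the peaks of chromosome 4 beyond 30 Mb left out before the fit, their adjusted p was 0.0459 to 0.0621 and limma called 3, while the median log2 change stayed at 0.43. Without chromosome 4 altogether limma called 0, with 1214 higher at an unadjusted p under 0.05. With 1 library left out the count of calls changed as well, and the median log2 change was 0.40 to 0.47. The 21 peaks lay on 16 chromosomes and were narrow, with a median width of 247 bp. Their control signal averaged 0.323 to 1.97 and their actl6a signal 2.60 to 7.80. In 13 of the 21 neither control library rose above its flanks, and in 6 the flanks of both actl6a libraries also exceeded those of both control libraries.

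The median log2 change over actl6a-only peaks was 0.43, while over all merged peaks it was -0.36. The merged peaks include the 14289 control-only peaks, whose median of -0.55 is also partly built in by the lists. The 9611 shared actl6a peaks, present in both lists, had a median of -0.26. Both actl6a libraries were below both control libraries in 35.8% of the shared peaks and above them in 3.92%. The merged peaks are therefore not a neutral baseline. Scaling each library on the median signal of merged peaks, which removes most of the shift over that set, gave 0.69 over actl6a-only peaks and -0.083 over all. From percentile 5 to percentile 95 the actl6a-only peaks ran from -0.12 to 1.14. The median log2 change was larger in narrower peaks. Width comes from the list that chose the peaks, so this trend may be partly built in, which was not tested. The narrowest 1374 peaks, 187 to 310 bp, had a median log2 change of 0.54, with control medians of 1.70 and 1.60 and actl6a medians of 2.71 and 2.55. The widest 1361, 582 to 1801 bp, had a median log2 change of 0.35, with control medians of 1.51 and 1.49 and actl6a medians of 2.12 and 1.99. The share with both actl6a libraries above both control libraries changed little. It was 54.9% in the narrowest set, 52.1% and 54.9% in the sets between, and 50.5% in the widest. Both actl6a libraries were below both control libraries in 31 of the narrowest and 13 of the widest.

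**Figure D3:**
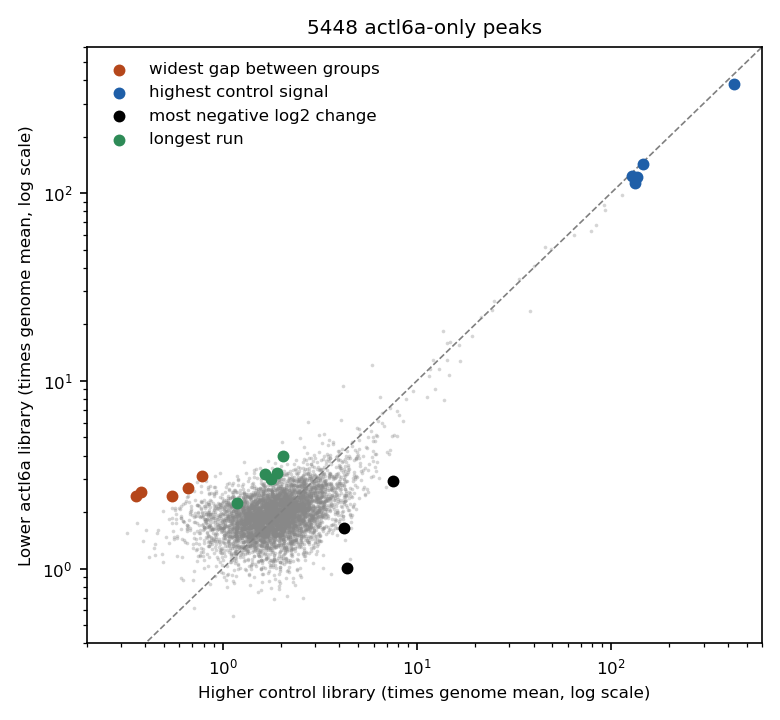
Each grey point is 1 of the 5448 actl6a-only peaks, placed by its higher control library (x axis) and its lower actl6a library (y axis), both as multiples of the genome mean on log scales. Points above the dashed line of equality are the 2893 peaks in which both actl6a libraries exceeded both control libraries. Coloured points are the peaks named for the widest gap, the highest control signal, the most negative log2 change and the longest run. They run from the 5 with the widest gap between groups at the left to the 5 with control signal above 100 at the upper right. Other named peaks are not coloured.

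On the scale log2(signal + 0.5), the widest gap between the lower actl6a and the higher control library was on chromosome 13 at 38728698 to 38728943, a peak of 246 bp. Signal was 0.359 and 0.379 in the control libraries, against 2.57 and 3.46 in the actl6a libraries. That is a log2 change of 2.01 with an SE of 0.388 and, in limma, an adjusted p of 0.0306. Without chromosome 4 in the fit, its adjusted p in limma was 0.0545. The peak was named for its gap between the groups, so these values describe it and do not test it. The control values were below the control flanks, at 0.851 and 1.37. The nearest control peak lay 85513 bp away. Some 7.7 and 9.4 inferred reads stood behind the control values.

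On chromosome 20, at 36742097 to 36742310, signal was 0.359 and 0.288 in control against 2.45 and 2.89 in knockdown libraries. On chromosome 12, at 9654065 to 9654286, the control libraries differed more, at 0.546 and 0.180, and the actl6a libraries held 2.45 and 3.71. As a plain ratio of the lower actl6a to the higher control library, the peak on chromosome 20 was the highest of all, at 6.83. Both peaks were among the 21 called, with log2 changes of 1.94 and 2.06. A control peak lay 7266 bp from the first of them and 46279 bp from the second.

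On chromosome 5, at 23817067 to 23817447, control signal of 0.783 and 0.727 lay in flanks of 2.21 and 1.30, and actl6a signal of 3.12 and 3.31 in flanks of 1.26 and 1.11. The control libraries thus held a local dip where the actl6a libraries held a peak. On chromosome 6, at 19431839 to 19432034, the control values were 0.449 and 0.660 and the actl6a values 2.70 and 2.74. Its log2 change was 1.62, and with an adjusted p of 0.0507 in limma this peak was not called.

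Peaks at the median of the class looked different. On chromosome 17, at 53333081 to 53333928, control signal was 1.81 and 1.93 and actl6a signal 2.97 and 2.42. On chromosome 4, at 2433370 to 2433799, the values were 1.68 and 2.27 in control against 2.44 and 3.22 in knockdown libraries. On chromosome 16, at 24895911 to 24896539, control libraries held 1.53 and 1.58 and actl6a libraries 3.03 and 1.66. In each of these the actl6a libraries lay above both controls, but in the last one by little in replicate 2. The log2 change was 0.43 in all 3, with SEs of 0.329 to 0.344 and adjusted p of 0.398 to 0.416 in limma.

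The most negative changes came from peaks carried mostly by actl6a replicate 1. On chromosome 19, at 2111270 to 2111612, control libraries held 3.06 and 4.36, actl6a replicate 1 held 3.24 and actl6a replicate 2 held 1.003. On chromosome 10, at 44421546 to 44421750, the values were 6.40 and 7.58 in the control libraries, against 6.11 and 2.94 in the actl6a libraries. On chromosome 3, at 41984159 to 41984441, they were 3.65 and 4.24 in control against 3.44 and 1.64 in knockdown libraries. In each of these regions both control libraries were from 2.07 to 5.30 times their flanks, although the control list does not hold it.

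A small set of actl6a-only peaks was very bright in every library. In 29 peaks on 15 chromosomes all 4 libraries exceeded 10 times the genome mean, with medians of 36.4 and 33.7 in control against 34.95 and 35.8 in knockdown libraries. Their median log2 change was 0.04, their median width 246 bp, and 14 of them had another such peak within 100 kb. The flanks were bright too, with medians from 17.2 to 20.5. The highest was on chromosome 21 at 25865413 to 25865603, with 397 and 432 in control against 382 and 441 in knockdown libraries. A second one on chromosome 21, at 25860302 to 25860493, had 110.3 and 129 in control against 124 and 134 in knockdown libraries.

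The others of the 5 brightest were on chromosome 8 at 34811082 to 34811360 and at 44391731 to 44391925, and on chromosome 15 at 7285235 to 7285540. In the first of these, actl6a signal of 113 and 117 was below control signal of 124 and 132. In the other 2 the libraries of the groups overlapped, between 118 and 158 times the genome mean. Without the 29 peaks the median log2 change of the remaining 5419 was still 0.43. What makes these places bright was not tested.

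Actl6a-only peaks were the narrowest class. Their median width was 422 bp, with 215 bp at percentile 5 and 923 bp at percentile 95. Shared actl6a peaks had a median of 558 bp and control-only peaks of 462 bp. The 5448 peaks covered 2.58 Mb, or 0.199% of the chromosomes analysed. With 1 list per group, widths have no replicate error, and the classes were not tested against each other.

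The widest were 1801 bp on chromosome 2 at 16980186 to 16981986, 1748 bp on chromosome 2 at 18002919 to 18004666, and 1688 bp on chromosome 21 at 31441928 to 31443615. They were broad and low. The first held 1.23 and 1.205 in control against 1.84 and 1.61 in knockdown libraries. The second held 1.07 and 1.29 in control against 2.54 and 1.31 in knockdown libraries, and the third 1.49 and 1.54 in control against 2.004 and 1.53 in knockdown libraries. Both actl6a libraries exceeded both controls in the first and the second, by a narrow margin in the second, and not in the third.

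**Figure D4:**
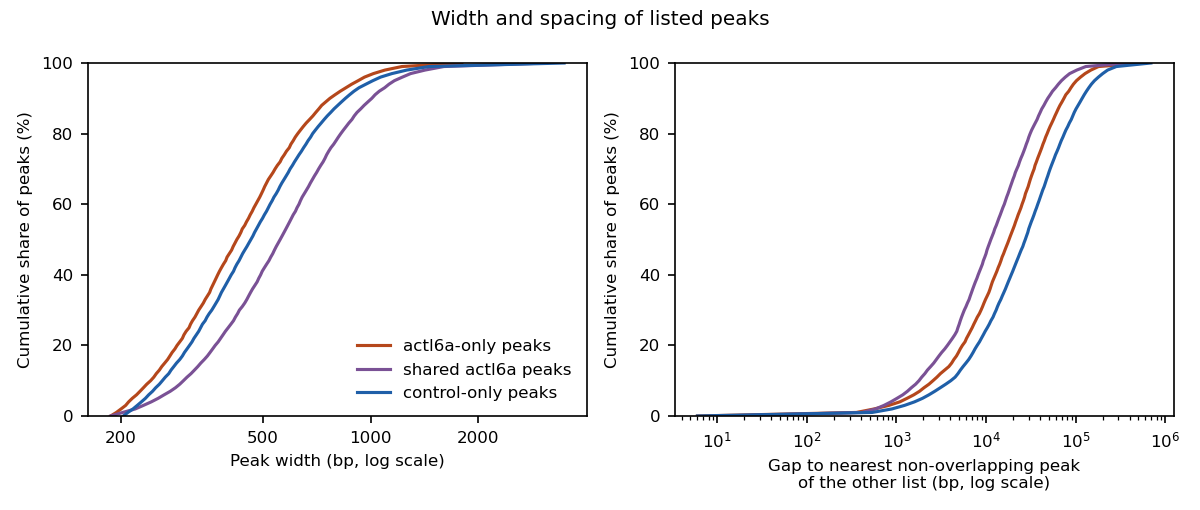
Cumulative share of peaks, in percent, by width (left) and by the gap to the nearest peak of the other list that they do not overlap (right), both in bp on log scales, for 3 classes of peaks. Actl6a-only peaks are the narrowest, with a median of 422 bp, and their median gap to a control peak is 18046 bp, between those of shared actl6a peaks at 11296 bp and control-only peaks at 27394 bp.

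Few actl6a-only peaks were the edge of a control peak. The gap to the nearest control peak had a median of 18046 bp, with 1310 bp at percentile 5. Only 91 peaks (1.67%) lay within 500 bp of a control peak and 200 (3.67%) within 1 kb. Within 10 kb there were 1815 (33.3%), and beyond 50 kb there were 1032 (18.9%). Shared actl6a peaks were closer to the next control peak that they did not overlap, with a median gap of 11296 bp. Control-only peaks lay farther from actl6a peaks, at a median of 27394 bp, but the actl6a list holds fewer peaks than the control list, so the gaps of these classes are measured against lists of different density.

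Residual control signal was lower at larger gaps. In the 200 peaks up to 1 kb from a control peak it had medians of 1.88 and 1.85, and their flanks, which can reach into the control peak, averaged 1.59 in control libraries. From 1 to 10 kb the medians were 1.72 and 1.66, from 10 to 50 kb 1.55 and 1.51, and beyond 50 kb 1.42 and 1.40. Actl6a signal went the same way, from 2.78 and 2.38 in the nearest set to 2.28 and 2.17 in the farthest. The median log2 change was 0.34, 0.36, 0.44 and 0.50 in the 4 sets from near to far. Divided by its flanks, control signal was instead lowest in the nearest set, with medians of 1.22 and 1.24. In the farther sets these medians were 1.90 and 1.85, then 1.81 and 1.78, then 1.69 and 1.54.

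The peaks nearest to the limit of the rule were on chromosome 14 at 20675376 to 20676511, 6 bp from a control peak, on chromosome 17 at 4066440 to 4066878, with a gap of 7 bp, and on chromosome 3 at 52890444 to 52890782, with 15 bp. Their control signal was 0.502 and 1.23, 1.14 and 1.59, and 0.928 and 2.26. Their actl6a signal was 1.004 and 2.13, 2.49 and 1.89, and 2.76 and 2.24. In the first and the last the libraries of the groups overlapped.

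Just outside the rule, 3 actl6a peaks overlapped a control peak by 4, 9 and 9 bp. They were on chromosome 21 at 10748023 to 10748418, on chromosome 1 at 23638085 to 23638633 and on chromosome 12 at 15831179 to 15831550. Control signal in them was 0.590 and 0.795, 1.35 and 1.69, and 2.57 and 2.97. Actl6a signal was 2.04 and 1.76, 1.93 and 2.40, and 2.94 and 3.68. In 2 of these 3 the actl6a libraries exceeded both control libraries, and in the last they overlapped.

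Most actl6a-only peaks had no other peak of their class within 10 kb. When peaks of the class at most 10 kb apart were joined into runs, 4987 (91.5%) stood alone, 442 were in pairs and 19 were in runs of 3 or more. Of shared actl6a peaks 70.8% stood alone, and of control-only peaks 79.0%. These shares depend on the number of peaks in a class, and the actl6a-only class is the smallest. The share expected from random placement was not computed. Counting any peak of the actl6a list, 1208 actl6a-only peaks (22.2%) had a neighbour within 10 kb, against 35.9% of shared actl6a peaks. The nearest peak of the same list lay at a median of 30148 bp from an actl6a-only peak, and at 17399 bp from a shared actl6a peak, which is measured against the same list. For 41.6% of actl6a-only peaks that neighbour was another actl6a-only peak.

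The longest run had 5 peaks on chromosome 3 between 8800450 and 8825361. Mean coverage over these 24.9 kb was 1.29 and 1.17 in the control libraries, against 2.08 and 1.80 in the actl6a libraries. With the 5 peaks left out it was 1.27 and 1.15 in control against 1.85 and 1.64 in knockdown libraries. On average, higher coverage in actl6a libraries thus extended between the peaks, but not throughout. The 1 kb bin that starts 11 kb into the run held 1.16 and 1.04 in control against 0.888 and 0.759 in knockdown libraries. Over the 50 kb to the left, mean coverage was 1.06 and 1.07 in control against 1.38 and 1.49 in knockdown libraries. Over the 50 kb to the right it was 0.984 and 1.03 against 1.39 and 1.29. Neither list holds a peak in those 2 stretches. The 20 kb just before the first peak were raised in all 4 libraries, to 1.53 and 1.52 in control and to 2.24 and 2.35 in knockdown libraries.

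In each of the 5 peaks, each actl6a library exceeded both control libraries by more than 1.5 times. The first peak, at 8800450 to 8800805, held 1.05 and 2.05 in control against 4.00 and 4.36 in knockdown libraries. Its log2 change was 1.23, with an SE of 0.338. The last, at 8823786 to 8825361, was also the broadest with 1576 bp, and held 1.19 and 1.096 in control against 3.95 and 2.24 in knockdown libraries. The others, at 8808154 to 8808434, 8817374 to 8817853 and 8818077 to 8818481, had log2 changes of 0.94, 0.90 and 0.79. None of the 5 was called, with adjusted p of 0.0740 to 0.163 in limma.

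**Figure D5:**
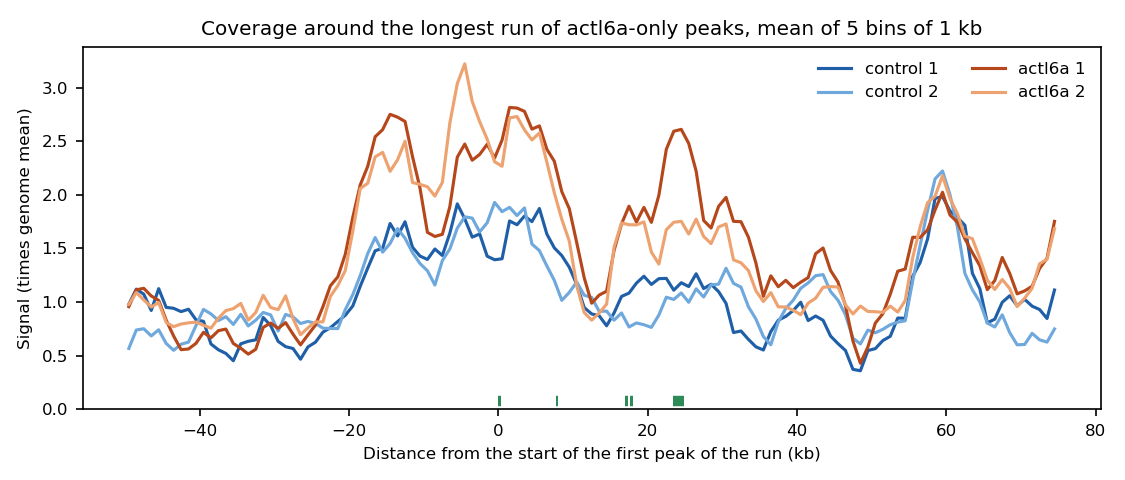
Signal, as a multiple of the genome mean in 1 kb bins averaged over 5 bins, against the distance from the first peak of the longest run in kb, for each library. Green bars mark the 5 actl6a-only peaks. Both actl6a libraries run above both control libraries over most of the run, where mean coverage between the peaks was 1.85 and 1.64 against 1.27 and 1.15, and also over about 20 kb to its left, where no peak is listed.

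Both actl6a libraries had flanks at least 1.5 times those of each control library in 58 actl6a-only peaks (1.06%), in 0.926% of shared actl6a peaks and in 1.197% of control-only peaks. Flanks of both actl6a libraries exceeded those of both control libraries, by any amount, in 999 actl6a-only peaks (18.3%), and were below them in 928 (17.0%). In shared actl6a peaks these shares were 17.0% and 18.8%, and in control-only peaks 20.9% and 14.7%. Of the 2893 peaks in which actl6a signal exceeded control signal in every pair of libraries, 571 also had flanks that did so, and 2322 did not. When each peak was divided by its own flanks, the enrichment of both actl6a libraries exceeded that of both control libraries in 2435 peaks (44.7%). Division by flanks does not remove the selection, which raises this count. The share over all merged peaks was not computed, and nothing is read from the count.

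The peaks were spread over all 25 chromosomes. Their density was 4.20 per Mb in all and ran from 3.49 per Mb on chromosome 24 to 4.88 per Mb on chromosome 2. They made up between 32.4% of actl6a peaks on chromosome 19 and 43.8% on chromosome 9. On chromosome 9 the density of actl6a-only peaks was 4.82 per Mb, while that of shared actl6a peaks, at 6.18 per Mb, was the lowest of the 25. The median log2 change by chromosome lay between 0.37 on chromosome 22 and 0.48 on chromosome 5. A value above 0 on each is partly built in by the selection of the peaks.

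Within chromosomes, 33 of 1288 windows of 1 Mb held no actl6a-only peak, and the median was 4. The window with most, 15, was on chromosome 2 from 58000001 to 59000000 and also held 12 shared and 19 control-only peaks. One window on chromosome 8, from 34000001 to 35000000, held 14 actl6a-only peaks, 11 shared peaks and only 3 control-only peaks. That window also contains one of the 5 brightest peaks. Across the windows, counts of actl6a-only peaks correlated with counts of shared peaks at r = 0.273 and with control-only peaks at r = 0.255, while shared and control-only counts correlated at r = 0.492. The classes differ in density, at 4.20 actl6a-only, 7.41 shared and 11.0 control-only peaks per Mb. Sparse counts may lower a correlation, so these r values are not directly comparable. Neighbouring windows are not independent, and gene density and base composition were not measured.

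Chromosome ends held 350 actl6a-only peaks (6.42%) within their outermost 1 Mb, against 8.60% of shared actl6a peaks and 6.05% of control-only peaks. Those 350 were brighter in all libraries than the 5098 farther in. Their control medians were 1.81 and 1.73, against 1.56 and 1.52 elsewhere, and their actl6a medians 2.53 and 2.43, against 2.35 and 2.21. Their flanks were brighter too, averaging 1.02 in control and 1.06 in actl6a libraries, against 0.872 and 0.882 farther in. Control enrichment over flanks was close, at 1.80 and 1.76 near the ends and 1.79 and 1.73 farther in. Actl6a enrichment was lower near the ends, at 2.36 in both libraries, against 2.69 and 2.50. The median log2 change near the ends was 0.33, and 0.43 farther in.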

How the data were processed

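Per the submitters' processing notes, Trim Galore, FastQC, Bowtie2, deepTools and MACS2 were used with build GRCz11; their settings, duplicate handling and transposase shift are not given in the sources used here. The authors deposited 1 coverage track per library, as signal in 50 bp bins, and 1 peak list per group without scores. Coordinates are counted from 1. Within each track at least 99.9992% of low values (up to 20 steps) were whole multiples of the smallest step within 0.1 of a step. Depth was inferred by reading that step as 1 read in RPKM, and intervals for counting error are not given because the reads need not be independent molecules.

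Signal was scaled to the genome mean of each track (chromosomes 1 to 25), and peak signal was the length-weighted mean. Union peaks, merged where the lists touched, were tested with limma 3.58.1 (R 4.3.3, lmFit, eBayes with trend, two-sided, Benjamini-Hochberg adjustment over all union peaks) on log2(signal + 0.5), which understates the change of low peaks; the step was tested on simulated data. No filter on low signal was used. Tables were handled in Python 3.11.15 with pandas 2.3.3 and numpy 2.4.6, and plots drawn with matplotlib 3.10.9. Peaks were named by rule: the 5 with the widest gap, on that log2 scale, between the lower actl6a and the higher control library, the 5 with the highest control signal, 3 each nearest the median change, most negative, widest and nearest to the overlap limit on both sides, and the longest run. The members, lists and rules were chosen with earlier results of these data known, and the sets by enrichment, gap, width and brightness, the profiles, the summit comparison and the windows were added after seeing the data. Sequence content and promoter share had been planned and were not analysed here. Alternatives covered the overlap rule, regions, scaling, pseudocount, a filter, the interval, flanks, variance model, threshold, replicate block and each library left out.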

Additional observations from a re-analysis of the deposited data

How the results depend on the processing

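The number of actl6a-only peaks called higher by limma, 21 in the analysis described, was the least stable result, and the cause of its changes was not tested. It was 10 with quantile normalization, 0 with a pseudocount of 0.1 (1201 at an unadjusted p under 0.05) and 51 with a pseudocount of 2, 5 with 500 bp around the midpoint, 3 without chromosome 4 beyond 30 Mb and 0 without chromosome 4, 80 with eBayes without trend and 216 at an adjusted p under 0.1. Over all union peaks, the calls were 20 higher and 1 lower with quantile normalization, and 30 and 39 in the analysis described. They were 1 and 3, then 62 and 141, with pseudocounts of 0.1 and 2, and 15 and 41 with 500 bp around the midpoint. Without trend they were 91 and 180, and at an adjusted p under 0.1 they were 242 and 847. A larger count is therefore not read as a result about the actl6a-only peaks. Leaving out 1 library gave from 12 (without actl6a replicate 2) to 229 (without control replicate 2), and the other 2 libraries gave 81 (control replicate 1) and 34 (actl6a replicate 1). A group left with 1 library takes its spread from the other. A fit with a replicate block called 399 actl6a-only peaks higher, and 447 higher and 2349 lower over all union peaks. The labels do not pair the samples, and the differences between replicates 2 and 1 correlated between groups at r = 0.036 over actl6a-only peaks and 0.056 over all union peaks. The count of actl6a-only peaks called stayed within 1.5 times with scaling on union peaks (31) or on signal outside them (21) and with a filter on mean signal (18). Over all union peaks, those settings called 45 higher and 2 lower, then 29 and 41, then 27 and 34.

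The median log2 change of 0.43 stayed above 0 in every setting run, which is partly built in by the selection of the peaks. It was 0.69 with scaling on union peaks, 0.71 with quantile normalization, 0.52 and 0.26 with pseudocounts of 0.1 and 2, and 0.38 with 500 bp around the midpoint, and 0.40 to 0.47 with 1 library left out. Median control signal of 1.56 became 1.40 with scaling on union peaks, 1.62 with scaling on signal outside peaks, and 1.53 in a 500 bp window on the midpoint, and control enrichment of 1.76 became 1.68 with flanks 2000 to 5000 bp away and 1.70 with 500 bp around the midpoint. Without 1 control library these were 1.54 to 1.58 and 1.73 to 1.79. Requiring at least 50% of a peak to be covered before it counts as shared gave 5967 peaks, with a median width of 441 bp and 39.1% within 10 kb of a control peak. Keeping peaks at or above the median width of the list gave 1937.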

Other observations

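The 134 actl6a-only peaks of chromosome 4 beyond 30 Mb are in none of the counts of actl6a-only peaks above, although their regions were part of the limma fit. Keeping them gave 5582 peaks with a median width of 423 bp, of which 33.0% lay within 10 kb of a control peak.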
